A study of Arabidopsis thaliana with 16 samples.

Results

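Class III peroxidases are secreted haem enzymes of plants, and their transcripts were followed here in Arabidopsis roots across auxin, cycloheximide and dexamethasone treatments. The genes were taken from a list of 60 class III peroxidase loci. A locus counted as measured where the array annotation gives a probe set to that locus and to no other, which held for 45 of the 60. A further 5 loci are covered only by 3 probe sets that each match several loci, and for 10 loci the annotation at hand names no probe set. These 15 are not analysed here. No measured locus had more than 1 probe set, so each gene below is 1 probe set on 16 arrays that carry 22746 probe sets besides controls.

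All seedlings carried the puchi-1 mutation and the transgene gPUCHI:GR, in which PUCHI, a factor of the AP2/ERF family that acts in lateral root primordia, is fused to the glucocorticoid receptor. Dexamethasone (DEX) lets such a fusion protein enter the nucleus. Roots were collected from seedlings 5 days old after 4 h in a mock solution with 0.1% DMSO, or with 2 µM DEX, 1 µM of the synthetic auxin naphthaleneacetic acid (NAA), 10 µM of the protein synthesis inhibitor cycloheximide (CHX), or any combination of the 3. The resulting 8 groups (mock, DEX, NAA, NAA+DEX, CHX, DEX+CHX, NAA+CHX and NAA+DEX+CHX) had 2 arrays each. The design text calls the 2 sets of samples independent without naming what was separate, so the p-values measure the spread between these samples. Plants without the transgene were not analysed here, so DEX has no background measurement in them.

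Class III peroxidases use hydrogen peroxide to couple phenols and extensins in the cell wall, which stiffens it and polymerises lignin, and they can also produce reactive oxygen species that loosen the wall. In the root they are known for lignin of the Casparian strip and of xylem vessels, for wall growth of root hairs, for defence responses and for the balance of reactive oxygen species between dividing and elongating cells. The bHLH factor UPB1 sets that last balance by repressing peroxidase genes. Auxin and wall peroxidases are both involved in the formation and emergence of lateral roots.

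The values are linear intensities that the authors scaled to a common level on each array. Changes below are differences of log2(intensity + 16), a scale that understates the change of weakly detected genes, and calls were made in limma at p under 0.05 after Benjamini-Hochberg adjustment over all 22746 probe sets. Replicate arrays correlated at r = 0.983 to 0.989 over all probe sets and at 0.990 to 0.998 over the 45 peroxidases, across genes that are not independent replicates. Probe sets at the 3' and 5' ends of the GAPDH transcript report on RNA degradation, and the array has 2 such control sets that differ. The set marked Athal gave 3' over 5' ratios of 0.763 to 1.57, with means of 1.51 ± 0.0234 (SD, n = 2) in the mock, 1.52 ± 0.00477 (SD, n = 2) with NAA and 1.15 ± 0.124 (SD, n = 2) with CHX. The set marked r2 gave 0.951 to 1.27, with 1.06 ± 0.00559, 1.12 ± 0.0384 and 0.968 ± 0.0232 (SD, n = 2 each) in the same groups. The ratio was lower with CHX than in the mock in both sets, but higher with NAA+DEX+CHX (1.26 ± 0.431 and 1.23 ± 0.0675) than with NAA+DEX (1.1 ± 0.314 and 1.16 ± 0.0412, SD, n = 2 each), and its part in the changes was not tested. Of the listed root markers the hair cell expansins EXPA7 and EXPA18 were measured (2 of 7 listed) and gave 486 to 1079 and 423 to 1653. Of the 5 listed green tissue markers Rubisco activase (RCA) was measured, at 309 to 719 on the 16 arrays. The PUCHI probe set reads the transcript without separating fusion gene and mutant gene. That transcript was at 220.5 and 195 in the mock and at 117 and 104 with DEX, a change of -0.82 (limma adjusted p 0.0641). It was at 1696 to 1916 with NAA alone or with DEX, and at 339 to 456 on the arrays with CHX. Under CHX its NAA change was 0.003 and did not pass. For 7 peroxidases (AT1G24110, AT3G50990, AT4G16270, AT5G19890, AT5G47000, AT5G58390 and AT5G58400) the intensity was under 100 on every array, and the deposited table gives no detection call.

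**Figure D1:**
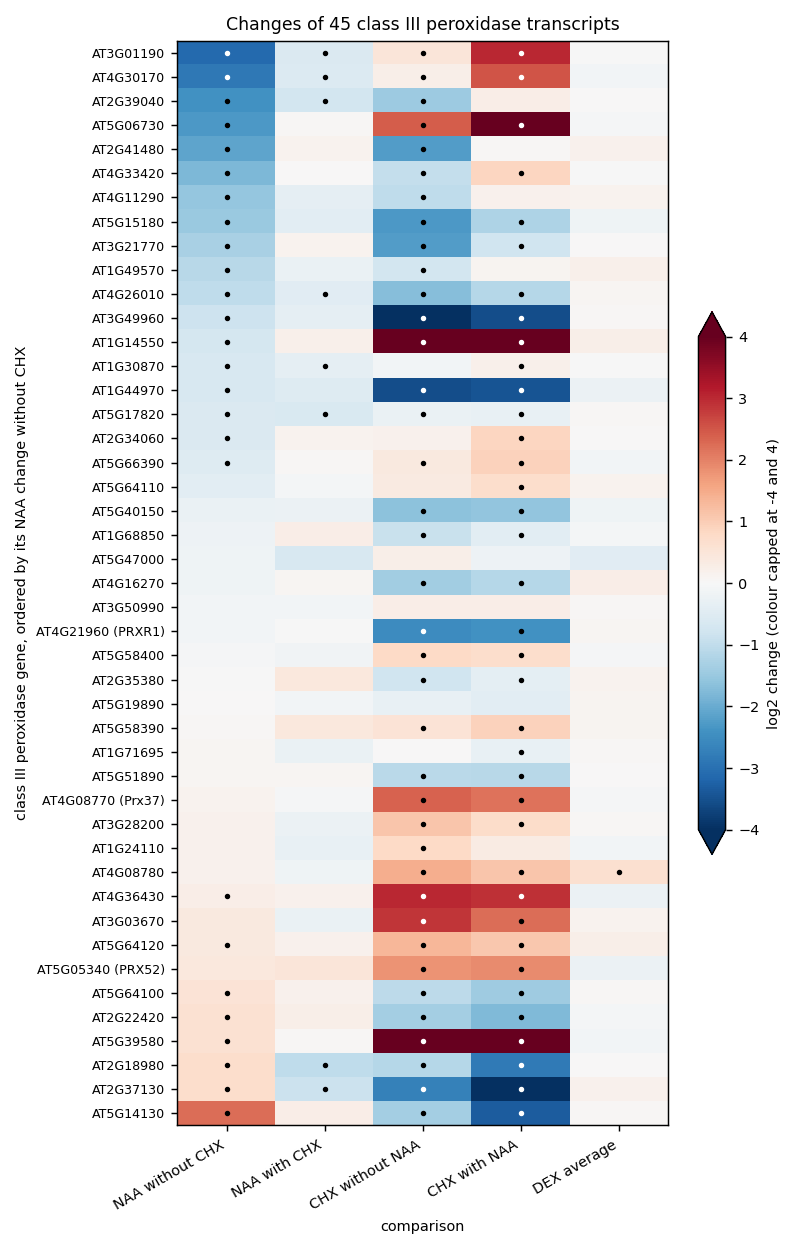
Log2 changes of the 45 measured class III peroxidase genes (rows, ordered by their NAA change without CHX) in 5 comparisons (columns), with colour capped at -4 and 4. Dots mark calls in limma at an adjusted p under 0.05. The NAA column without CHX holds 26 dots, the NAA column with CHX 8, the CHX columns 38 and 37, and the DEX column 1.

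NAA without CHX was followed by lower transcript levels of 18 peroxidases and by higher levels of 8. The falls were the larger changes. AT3G01190 fell by 3.11, AT4G30170 fell by 2.85 and AT2G39040 fell by 2.42, and the largest rise was that of AT5G14130 at 2.23. The comparison took the mean of NAA against mock and of NAA+DEX against DEX, 4 arrays against 4. Over all probe sets 18.8% were called lower and 19% higher. All 4 NAA arrays lay below all 4 others for 17 peroxidases and above them for 6, beside 18.7% and 18.8% of all probe sets. A change of at least 1 was called downwards for 11 peroxidases and upwards for 1, where 4.42% and 3.28% of all probe sets passed in each direction. The median change of the 45 peroxidases was -0.18 and that of all probe sets was -0.00068.

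AT3G01190 gave intensities of 3547 and 3677 in the mock and of 3823 and 4019 with DEX. With NAA it gave 447 and 428, and with NAA+DEX 416 and 395. All 4 NAA arrays lay below all 4 arrays without it, at a change of -3.11 (SE 0.0698, limma adjusted p 4.04e-15). AT4G30170 gave 6572 and 6711 in the mock, 6251 and 6937 with DEX, 902 and 886 with NAA, and 908 and 929 with NAA+DEX. The groups did not overlap, and the change was -2.85 (SE 0.0748, limma adjusted p 3.14e-14). AT2G39040 gave 645 and 657 in the mock and 714 on each DEX array, against 119 on each NAA array and 105 and 115 with NAA+DEX. The change was -2.42 (SE 0.123, limma adjusted p 1.13e-10), again without overlap.

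Genes with known roles in lignin were found on both sides. Of 9 listed peroxidases linked to xylem or fibre lignin 7 were measured, of which 3 fell and 2 rose. The shares of all probe sets were 18.8% and 19%. AT2G41480 (PRX25), which takes part in stem lignification, fell by 2.11 (SE 0.193, limma adjusted p 1.7e-07). AT4G33420, a peroxidase of lignifying xylem vessels, fell by 1.80 (SE 0.0849, limma adjusted p 4.15e-11). AT5G66390 (PRX72) fell by 0.50. AT2G22420, which promotes the formation of lignified tissue, rose by 0.62 (SE 0.114, limma adjusted p 0.000343), and AT5G64120 (PRX71), a peroxidase of the response to cell wall damage, rose by 0.39. The xylem vessel peroxidase AT5G51890 had a value of 0.08 (95% interval -0.08 to 0.23) and AT5G05340 (PRX52) a value of 0.42, neither of which passed.

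All 3 measured members of the 5 peroxidases that together build Casparian strip lignin in the endodermis fell with NAA. Over all probe sets 18.8% were called lower. NAA against mock by itself called 1 of the 3 lower, and NAA+DEX against DEX called all 3. AT4G11290 was at 1124 and 1243 in the mock and 1240 and 1386 with DEX, and at 318 and 435 with NAA and 437 and 473 with NAA+DEX. Its change was -1.56 (SE 0.101, limma adjusted p 2.25e-09). AT1G44970 fell by 0.64 (SE 0.167, limma adjusted p 0.00552), a call that ended with a pseudocount of 1, and the third was AT5G66390. Of the other Casparian strip genes 2 of 8 were measured. The receptor kinase GSO1, which surveys the integrity of the strip, fell by 0.64, while AT1G61590, a receptor-like cytoplasmic kinase of strip signalling, had a value of -0.15 that did not pass. AT4G11290 is also a target of UPB1, as are AT5G17820, which fell by 0.58, and AT4G16270, at -0.18 with no call. UPB1 itself was measured and fell by 0.43 (SE 0.0997, limma adjusted p 0.00251).

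Of the 4 listed root hair peroxidases only AT4G26010, which supports hair elongation through wall extensins, was measured. It was at 3419 to 4108 on the mock and DEX arrays and at 1464 to 2021 on the NAA and NAA+DEX arrays, and fell by 1.02 (SE 0.102, limma adjusted p 5.02e-07). The hair cell expansins fell alongside, EXPA7 by 0.64 and EXPA18 by 0.69. In contrast AT5G39580, not on that list but with a part in root hair growth at low temperature, rose by 0.62. In whole roots, fewer cells of a type and less RNA per cell cannot be told apart. RCA fell by 0.55 with NAA, and the part of green tissue in the peroxidase changes was not tested.

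Among the genes whose role is less settled, AT5G06730 was at 91.1 and 98.2 in the mock and at 56.3 and 102 with DEX, and at 12.3 and 2.10 with NAA and 2.52 and 2.98 with NAA+DEX. It fell by 2.29 (SE 0.166, limma adjusted p 9.25e-09), with all NAA arrays below all others. Its NAA intensities are so low that the size depends on the pseudocount, from -4.13 to -1.12 over the alternatives, and at the lower end it exceeds the fall of AT3G01190 (-3.16 to -2.98). AT5G15180 fell by 1.47 and AT1G49570 by 1.12 (-1.52 to -0.64 over the alternatives), and the change of AT3G21770 lay between these (SE 0.0575, limma adjusted p 1.9e-11). Smaller falls, at changes of -0.84 to -0.57, were called for AT3G49960, AT1G14550 (-1.01 to -0.36 over the alternatives), AT1G30870 and AT2G34060. That of AT2G34060 ended without mock replicate 2, DEX replicate 1, NAA replicate 1 or either NAA+DEX replicate, over a range of -0.82 to -0.33 in the fits that left out 1 array, and also after quantile normalization.

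AT5G14130 rose most with NAA. It gave 383 and 275 in the mock and 240.3 and 302 with DEX, and 1242 and 1306 with NAA and 1655 and 1631 with NAA+DEX. The groups stood apart, with a change of 2.23 (SE 0.132, limma adjusted p 7.93e-10). AT2G37130 gave 3373 and 3567 in the mock, 4021 and 4345 with DEX, 5262 and 6295 with NAA, and 7239 and 6306 with NAA+DEX, and rose by 0.71 (SE 0.0901, limma adjusted p 7.28e-06). AT2G18980 gave 3298 and 4256 in the mock, 4438 and 4162 with DEX, 5941 and 7247 with NAA, and 5857 and 7222 with NAA+DEX, and rose by 0.70 (SE 0.0902, limma adjusted p 8.43e-06). For both genes the lowest NAA array lay above the highest array without NAA. AT5G39580 rose by 0.62 and AT5G64100 by 0.55. The rise of AT4G36430 by 0.26 (0.12 to 0.40 in the fits that left out 1 array) ended without mock replicate 1, without either DEX or either NAA replicate, without NAA+DEX replicate 2, without the variance trend and after quantile normalization.

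The components of this comparison share no array. NAA against mock and NAA+DEX against DEX each called 6 peroxidases higher in common and 15 lower in common, where 10.3% and 10.4% of all probe sets were called higher or lower in both. Their changes had the same sign for 35 of 45 genes and correlated across genes at Pearson's r 0.942 and Spearman's rho 0.849. No peroxidase was called in opposite directions.

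Fewer NAA changes were called in roots that also received CHX. With CHX present NAA lowered 8 peroxidases and raised 0 in limma, where 3.09% of all probe sets were called lower and 1.38% higher. Under CHX all NAA arrays lay below all others for 8 peroxidases and above for 2, beside 5.43% and 4.22% of all probe sets. At an unadjusted p under 0.05 there were 18 in both directions together, where 16.7% of all probe sets passed. Of the 18 that NAA lowered without CHX, 6 were also lowered with it and 12 were not called. Their median change was -1.21 without CHX and -0.35 with it, and for 17 of the 18 the change was the smaller one with CHX. These 18 were picked by their change without CHX, so some shrinkage comes from the picking alone, and its share was not tested. The median over the 45 was -0.09, and that over all probe sets 0.00086. Over the whole array 4319 probe sets were called higher and 4274 lower without CHX, and 314 and 703 with it.

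An interaction term, fitted on the 16 arrays together, tested whether NAA acted differently under CHX. It was more positive with CHX for 14 peroxidases and more negative for 6, beside 11.8% and 12.5% of all probe sets. All 14 were genes that NAA lowered without CHX, and for the other 4 of the 18 (AT1G44970, AT2G34060, AT3G49960 and AT5G17820) the interaction did not pass. The interaction subtracts the NAA change without CHX, so this overlap is partly built in. Of the 18, CHX without NAA by itself lowered 11 and raised 5, and 2 were not called, beside 34.4% and 29.5% of all probe sets. The part of these CHX changes in the smaller NAA changes was not tested. AT3G01190 was at 5222 and 5521 with CHX, 4953 and 5534 with DEX+CHX, 4054 and 3271 with NAA+CHX, and 3303 and 3554 with all 3 compounds. NAA thus lowered it by 0.58 (limma adjusted p 0.000111) under CHX against 3.11 without, a difference of 2.53 (SE 0.0988, limma adjusted p 1.82e-11). AT4G30170 was at 9062 and 8443 with CHX, 6452 and 7419 with DEX+CHX, 5971 and 5154 with NAA+CHX, and 4590.4 and 5535 with all 3. Its fall of 0.56 with NAA under CHX differed from that without CHX by 2.29 (SE 0.106, limma adjusted p 1.12e-10).

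AT2G39040 was at 285 and 194 with CHX, 274 and 220.3 with DEX+CHX, 125 and 157 with NAA+CHX, and 130 and 147 with all 3. It fell by 0.72 with NAA under CHX (SE 0.123, limma adjusted p 0.00252), without overlap, and the difference from the change without CHX was 1.70 (SE 0.174, limma adjusted p 1.64e-06).

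AT5G06730 held 439 to 617 on the 4 CHX arrays without NAA and 513 to 565 on the 4 with NAA. These ranges overlap, the NAA change was 0.04, and the difference from the change without CHX was 2.33 (SE 0.234, limma adjusted p 1.25e-06), or 1.16 with a pseudocount of 64 and 4.17 with 1. The vessel peroxidase AT4G33420 also had no called NAA change under CHX, with 616 to 844 against 757 to 784 and a value of 0.02. The difference from its change without CHX was 1.83 (SE 0.12, limma adjusted p 7.94e-09). CHX without NAA moved these genes in opposite directions, AT5G06730 up by 2.42 and AT4G33420 down by 0.97. For AT2G41480 the value with NAA under CHX was 0.15, for AT3G21770 it was 0.13 and for the Casparian strip gene AT5G66390 it was 0.03, none of which passed. AT2G41480 had means of 44.7 with CHX and 60.5 with DEX+CHX, near its 63.8 with NAA and 51.7 with NAA+DEX. AT3G21770 had means of 792 with CHX and 852 with DEX+CHX, below its 1610 with NAA and 1548 with NAA+DEX. In contrast, CHX without NAA raised AT5G66390 by 0.39. The Casparian strip gene AT4G11290 had a value of -0.35 that missed the threshold (limma adjusted p 0.0622) with all 4 NAA arrays below the other 4, and it passed with the 60% of probe sets of highest mean at -0.35 (0.0388), without either NAA replicate, and without CHX replicate 1 (-0.43) or NAA+CHX replicate 1 (-0.42).

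AT5G17820, 1 of the 3 measured UPB1 targets, went against this trend. It was at 5064 to 5587 on the mock and DEX arrays and at 2991 to 4065 on the NAA and NAA+DEX arrays. With CHX it was at 4112 to 4560 without NAA and at 2766 to 2976 with it, so the groups were separate in both states. NAA lowered it by 0.58 without CHX (SE 0.064, limma adjusted p 1.53e-06) and by 0.60 with CHX (SE 0.064, limma adjusted p 4.03e-05). The interaction was -0.02 with a 95% interval of -0.21 to 0.17. Of the other UPB1 targets, AT4G11290 had a called interaction of 1.21, and AT4G16270 was not called for NAA in either state. UPB1 fell by 0.81 with NAA under CHX, and the interaction for UPB1 of -0.39 did not pass. EXPA7 and EXPA18 fell by 0.60 and 0.39 under CHX, and the root hair peroxidase AT4G26010 fell by 0.44, a call that ended without CHX replicate 1, DEX+CHX replicate 1, NAA+CHX replicate 2 or NAA+DEX+CHX replicate 2 (range -0.56 to -0.32) and without the variance trend.

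A pair of genes changed direction. AT2G37130 was at 543 to 622 on the 4 CHX arrays without NAA and at 279 to 377 on the 4 with NAA. It rose by 0.71 with NAA without CHX and fell by 0.84 with NAA under CHX (limma adjusted p 4.03e-05), a difference of -1.55 (SE 0.127, limma adjusted p 1.18e-07). AT2G18980 was at 1717 to 1950 with CHX alone or with DEX, and at 844 to 965 once NAA was added. It rose by 0.70 without CHX and fell by 1.01 under CHX (SE 0.0902, limma adjusted p 6.53e-06), with a difference of -1.71 (SE 0.128, limma adjusted p 3.82e-08). In both genes the NAA arrays are the highest of all without CHX and the lowest of all with CHX. AT5G14130 kept 84.6 to 124 on the CHX arrays without NAA and 121 to 157 on those with NAA, a value of 0.28 that did not pass, and the difference was -1.95 (SE 0.187, limma adjusted p 7.46e-07). The NAA rises of AT5G39580 and AT5G64100 were also smaller under CHX, by differences of -0.58 and -0.38, and AT3G28200, not called for NAA in either state, had a difference of -0.38.

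**Figure D2:**
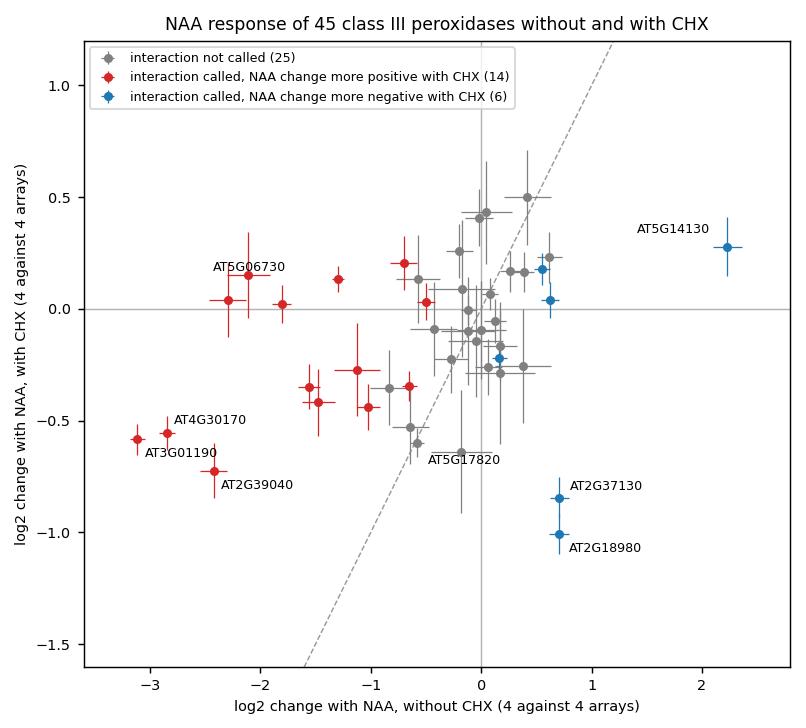
Log2 change with NAA under CHX (vertical axis) against that without CHX (horizontal axis) for the 45 peroxidase genes, with bars of 1 SE from the model; the axes have different scales and the dashed line marks equal changes. The 14 red genes, all at or left of -0.50 on the horizontal axis, lie closer to 0 on the vertical one, AT5G17820 lies on the line, and AT2G37130 and AT2G18980 are positive without CHX and negative with it.

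CHX by itself changed most of the family, and most of all probe sets on the array as well. Without NAA 16 peroxidases rose and 22 fell, beside 29.5% and 34.4% of all probe sets. At a change of at least 1 there were 10 rises and 17 falls, beside 15.4% and 16.5%. All CHX arrays lay above all others for 13 peroxidases and below for 22, beside 27.1% and 32.5% of all probe sets. Changes ran from -4.02 to 7.39, with a median of -0.27 over the 45 genes and of -0.0071 over all probe sets. Scaling sets every array to a common level, so these changes are relative to it, and a shift of all transcripts cannot be seen.

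AT5G39580, a peroxidase with a part in root hair growth at low temperature, rose most. It was at 100.3 and 131 in the mock and 128 and 111 with DEX, and at 22063 and 23607 with CHX and 21023 and 22468 with DEX+CHX. The change was 7.39 (SE 0.0813, limma adjusted p 7.42e-20). AT1G14550 went from 36.6 and 52.5 in the mock and 52.4 and 64.7 with DEX to 8070.4 and 9698 with CHX and 8620 and 9465 with DEX+CHX. Its change was 7.07 (SE 0.121, limma adjusted p 6.34e-18). AT4G36430 was at 919.9 to 1360.5 on the mock and DEX arrays and at 7374 to 9499 with CHX, and rose by 3.01 (SE 0.0912, limma adjusted p 1.05e-14). In all 3 genes every CHX array lay above every array without it.

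Further rises were those of AT3G03670 by 2.86, AT5G06730 by 2.42, AT4G08770 (Prx37, whose overexpression stunts plants) by 2.37, AT5G05340 (PRX52, a lignin peroxidase of stem fibres) by 1.80, AT4G08780 by 1.46, AT5G64120 (PRX71) by 1.31 and AT3G28200 by 1.11. The remaining rises were under 1, and those of AT1G24110, AT5G58390 and AT5G58400, all under 100 on every array, ended in 7, 9 and 2 of the 16 fits that left out 1 array and after quantile normalization. Over the alternatives AT3G03670 ranged from 1.67 to 4.24 and AT5G05340 from 1.02 to 2.61. AT3G01190 and AT4G30170, which fell with NAA, rose with CHX by 0.49 and 0.23. The call of AT4G30170 ended without DEX replicate 1 or DEX+CHX replicate 2 (0.18 to 0.28 over the 16 fits). NAA and CHX comparisons without the other compound share the mock and DEX arrays.

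AT3G49960 and AT1G44970 had the largest falls with CHX at a pseudocount of 16, and their order turned with a pseudocount of 1 (-4.28 and -4.83). AT3G49960 was at 1380.3 to 1566 on the mock and DEX arrays, at 90.1 and 48.7 with CHX and at 108 and 63.4 with DEX+CHX, a change of -4.02 (SE 0.168, limma adjusted p 8.32e-13). The Casparian strip peroxidase AT1G44970 went from 310 and 368 in the mock and 326 and 393 with DEX to 35.7 and 30.3 with CHX and 2.96 and 3.95 with DEX+CHX, a change of -3.56 (SE 0.167, limma adjusted p 4e-12) that was -2.35 with a pseudocount of 64. AT2G37130 fell by 2.70 (SE 0.0901, limma adjusted p 3.93e-14). The groups stood apart for each of these genes.

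AT4G21960 (PRXR1) was at 13624 to 14398 on the mock and DEX arrays and at 2164 to 2632 with CHX, and fell by 2.52 (SE 0.0659, limma adjusted p 1.48e-15). NAA without CHX gave it a value of -0.12 (95% interval -0.26 to 0.02). AT5G15180, AT3G21770 and AT2G41480 fell by 2.29, 2.23 and 2.22. The root hair peroxidase AT4G26010 fell by 1.71, and EXPA18 fell by 1.16, while EXPA7 had a value of -0.18 that did not pass. RCA fell by 0.69, and the part of green tissue was not tested. AT5G40150, AT2G39040, AT4G16270, AT2G22420, AT5G14130, AT2G18980, AT5G51890, AT5G64100 and AT4G11290 fell by 1.63 to 1.03, AT4G16270 with a range of -2.54 to -0.67 over the alternatives.

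By role, the lignin-linked list split into 3 rises (PRX52, PRX71 and PRX72) and 4 falls (AT2G22420, AT2G41480, AT4G33420 and AT5G51890) with CHX. Of the 3 Casparian strip peroxidases AT1G44970 and AT4G11290 fell and AT5G66390 rose by 0.39. All 3 UPB1 targets fell, AT4G16270 by 1.40, AT4G11290 by 1.03 and AT5G17820 by 0.27, and UPB1 fell by 0.27. These counts stand beside 34.4% of all probe sets called lower with CHX and 29.5% called higher, and the lists are small. The components of the comparison, CHX against mock and DEX+CHX against DEX, share no array and called 11 peroxidases higher and 21 lower in common, beside 22.2% and 27.8% of all probe sets. Signs agreed for 43 of 45 genes, with Pearson's r 0.983 and Spearman's rho 0.969 across genes.

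**Figure D3:**
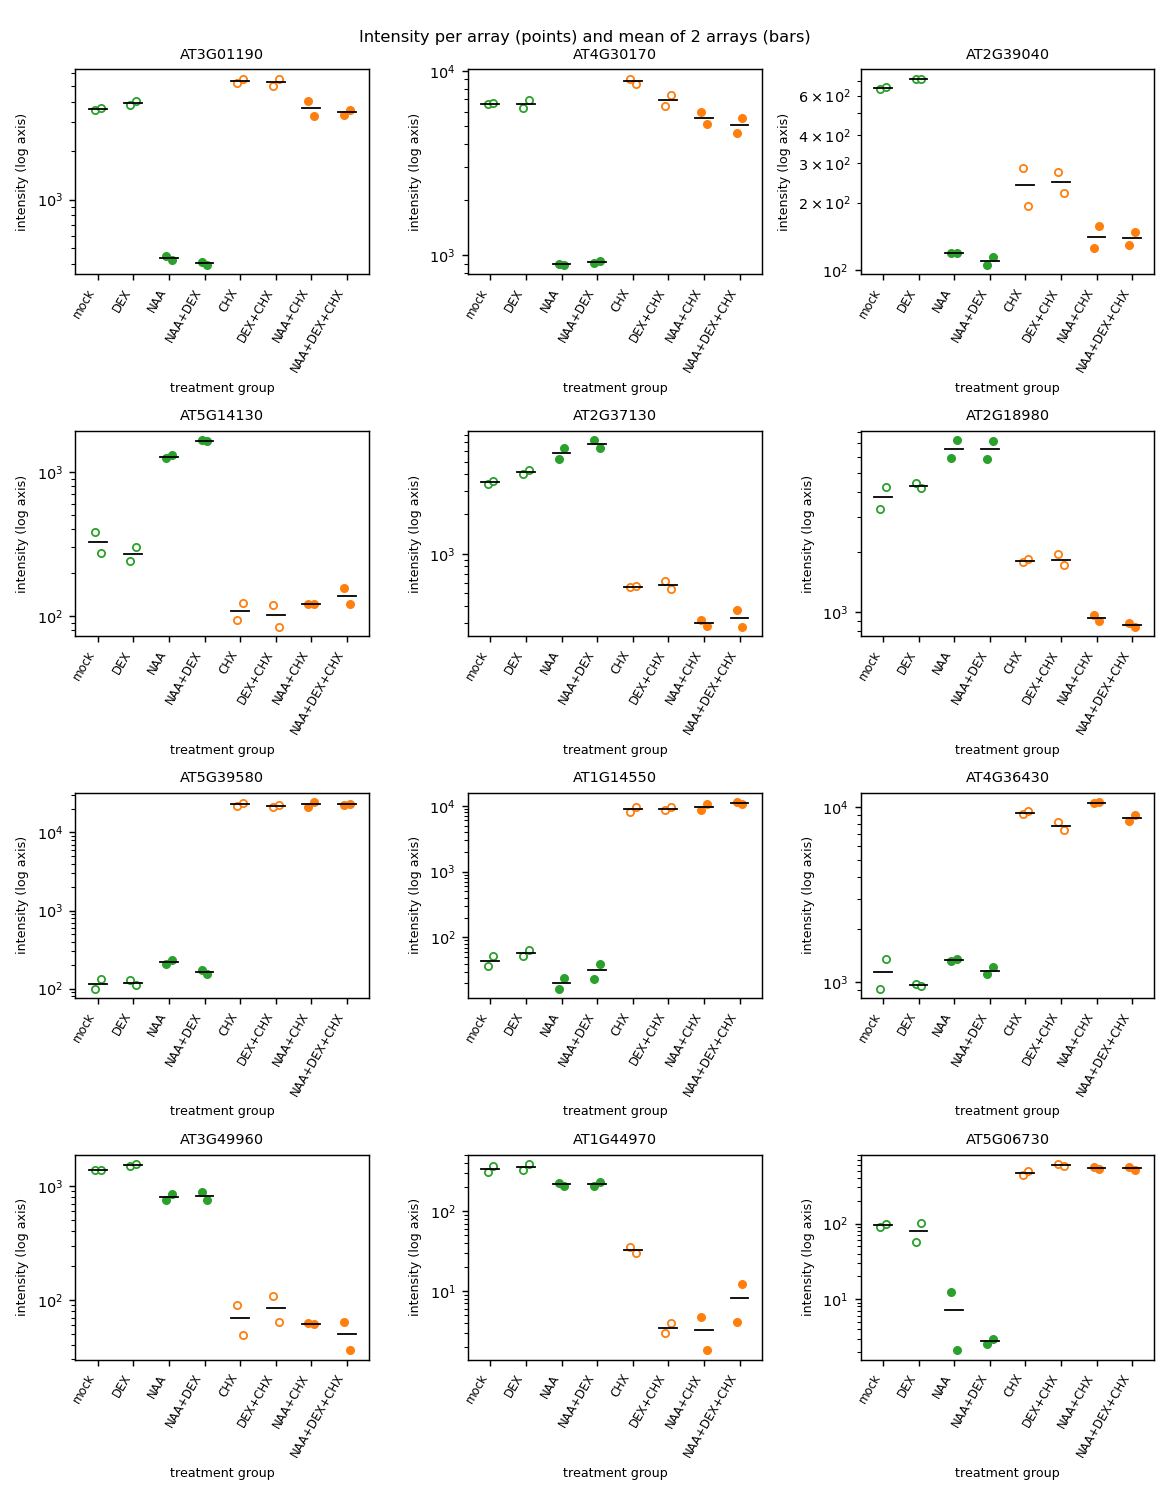
Intensity (log axis) of 12 peroxidase genes on each array, with 2 points and a bar at their mean for each of the 8 treatment groups; orange marks CHX and filled points mark NAA. AT3G01190 and AT4G30170 are low only in the NAA groups without CHX, AT5G14130 is high only there, and AT5G39580, AT1G14550 and AT4G36430 are high in all 4 CHX groups.

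In roots that also received NAA, CHX raised 19 peroxidases and lowered 18, beside 29.1% and 35.1% of all probe sets. At a change of at least 1 there were 11 rises and 13 falls, beside 15.5% and 17%. The changes ran from -4.25 to 7.98. AT1G14550 rose by 7.98 (SE 0.121, limma adjusted p 1.89e-18), from 16.7 to 39.3 on the NAA and NAA+DEX arrays to 8686 to 11411 on the NAA+CHX and NAA+DEX+CHX arrays. AT5G39580 rose by 6.81, from 153 to 232 up to 21324 to 24492 (SE 0.0813, limma adjusted p 1.53e-19). AT5G06730 rose by 4.75 (SE 0.166, limma adjusted p 6.86e-14) from its 2.10 to 12.3 with NAA, a size that was 3.13 with a pseudocount of 64 and 6.78 with 1. AT3G01190 rose by 3.02 and AT4G30170 by 2.52. AT4G33420 rose by 0.86 here and fell by 0.97 with CHX in the absence of NAA. Of the 45 genes it was the only one called in opposite directions in these comparisons, and the difference is the interaction of 1.83 given above.

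AT2G37130 fell by 4.25 (SE 0.0901, limma adjusted p 1.03e-16), from 5262 to 7239 with NAA down to 279 to 377. AT3G49960 fell by 3.54 (SE 0.168, limma adjusted p 4.56e-12), AT1G44970 by 3.45 (SE 0.167, limma adjusted p 5.91e-12, -5.25 with a pseudocount of 1 and -2.01 with 64), AT5G14130 by 3.33 and AT2G18980 by 2.84. The small falls of AT1G71695 (-0.30) and AT2G35380 (-0.38) and the small rises of AT1G30870 (0.20) and AT5G58400 (0.71) ended in at least 2 of the fits that left out 1 array. That of AT1G71695 ended in 12 of them.

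DEX gave 1 call. AT4G08780 was higher with DEX by 0.63 on average over the 4 backgrounds (SE 0.11, 95% interval 0.40 to 0.86, limma adjusted p 0.0405, 8 arrays against 8), where 0.0659% of all probe sets were called higher and 0.0132% lower. It was at 142 and 272 in the mock and 409 and 395 with DEX. With NAA it was at 203 and 233 and with NAA+DEX at 459 and 479. The DEX arrays lay above their controls in both of these backgrounds. With CHX it was at 874 and 734 and with DEX+CHX at 880.3 and 732, which overlap. With NAA+CHX it was at 490.5 and 735 and with all 3 compounds at 800.2 and 894, so the DEX arrays again lay above. Of the 45 peroxidases, 12 had this order against the mock, 20 beside NAA, 6 beside CHX and 5 beside NAA and CHX. The reverse order held for 4, 9, 10 and 8. With so few arrays per group such orders also arise by chance, and their share over all probe sets was not counted. Whether the peroxidase counts exceed that share was not tested, so no DEX effect on the family is read from them.

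Within single backgrounds the AT4G08780 changes were 0.97 with DEX alone (limma adjusted p 0.438), 1.05 with NAA (0.122), 0.00 with CHX (95% interval -0.46 to 0.47) and 0.48 with NAA and CHX (0.655), none of which passed, n = 2 against 2. The difference between the DEX changes with and without CHX was -0.77 and did not pass either (limma adjusted p 0.437). Leaving out 1 array ended the call of the DEX average in 13 of 16 fits, over changes of 0.52 to 0.74 and adjusted p up to 0.146. The call also ended with a pseudocount of 1 (0.66, limma adjusted p 0.0571) and without the variance trend (0.63, limma adjusted p 0.209). Without mock replicate 2, the higher of its pair, DEX alone stood at 1.41 (limma adjusted p 0.0112), and without either mock replicate DEX with NAA, at 1.05, passed (0.0367 and 0.0375).

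The gene next to it on the chromosome, AT4G08770 (Prx37), had DEX values of -0.02, 0.00, -0.20 and 0.01 in the same 4 backgrounds and -0.05 on average (95% interval -0.20 to 0.10). The pair share the CHX response, at 2.37 for AT4G08770 and 1.46 for AT4G08780, and neither was called for NAA. Another pair of neighbours, AT5G58390 and AT5G58400, had intensities of at most 42.6 throughout. In the row of neighbours AT5G64100, AT5G64110 and AT5G64120 the CHX values were -1.04, 0.36 and 1.31, of which the first is a fall, the last a rise and the middle one not called, and the NAA values were 0.55, -0.43 and 0.39.

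**Figure D4:**
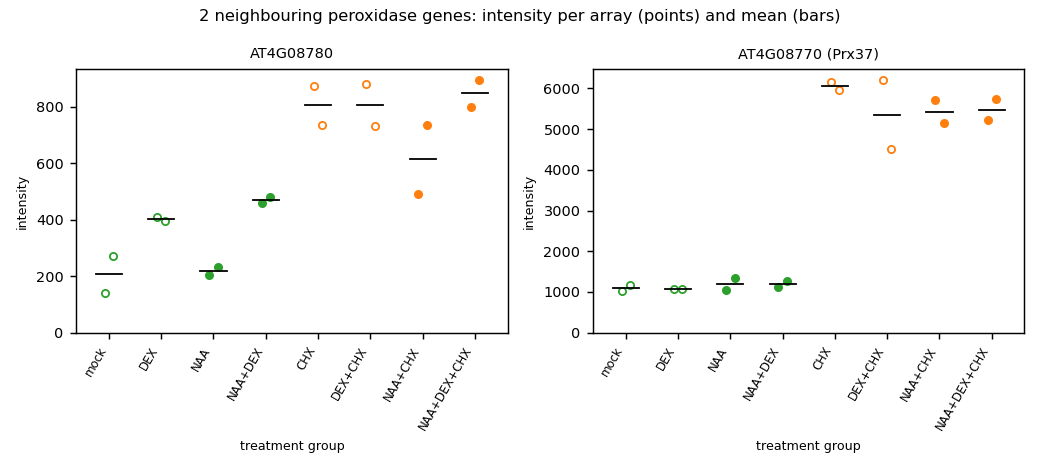
Intensity (linear axis from 0) of the neighbouring genes AT4G08780 and AT4G08770 (Prx37) on each array, with 2 points and a bar at their mean for each treatment group; orange marks CHX and filled points mark NAA. AT4G08780 lies at 395 to 479 in the DEX and NAA+DEX groups against 142 to 272 in the mock and NAA groups. It also lies higher with NAA+DEX+CHX (800.2 and 894) than with NAA+CHX (490.5 and 735), while the CHX and DEX+CHX groups overlap. AT4G08770 lies at 1014 to 1353 in all 4 groups without CHX.

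No peroxidase was called for DEX in any single background, where limma called 0.022% of all probe sets for DEX by itself, 0.0352% beside NAA, 0.0132% beside CHX and 0.0308% beside NAA and CHX. At an unadjusted p under 0.05 there were 4, 8, 2 and 5 of the 45, where 4.7%, 7.18%, 6.63% and 7.57% of all probe sets passed. For the average there were 7, beside 6.95% of all probe sets, among them AT4G36430 at -0.24 and AT5G64120 (PRX71) at 0.22, with limma adjusted p of 0.331 and 0.387. Without mock replicate 1 AT4G36430 passed at -0.31 (limma adjusted p 0.0155). All 45 genes had a 95% interval of the DEX average within -1 to 1. In the single backgrounds this held for 39 genes with DEX alone, 37 with NAA, 41 with CHX and 38 with NAA and CHX. The bounds there reached -1.83 (with CHX) and 1.52 (with NAA). For AT1G44970 the DEX value under CHX was -1.33 (limma adjusted p 0.121), from the low intensities given above, and it passed without the variance trend (0.0458) and, at -2.94, with a pseudocount of 1 (0.0497). No peroxidase was called for the interaction of DEX with NAA or with CHX, where 4 and 6 had an unadjusted p under 0.05, beside 5.86% and 7.57% of all probe sets.

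Few other genes of the same wall chemistry had a probe set named for 1 gene. The annotation leaves 8730 of 22746 probe sets unnamed, so these counts do not give the coverage of the array. Of 19 genes of lignin monomer synthesis 2 were measured, and both fell with NAA without CHX, HCT by 0.94 and CCR2 by 0.94. With CHX HCT fell by 3.15 and CCR2, a reductase of defence-related lignin, rose by 4.86. Of 10 NADPH oxidases (RBOH), which supply apoplastic superoxide, 3 were measured. AT1G19230 and AT4G11230 rose with NAA by 0.96 and 0.97, and AT4G25090 fell by 0.36. With NAA under CHX the values were 0.04, 0.05 and -0.22, none of which passed, and CHX alone gave a fall of 0.55 and rises of 1.38 and 0.36 in the same order. Of 17 laccases, the other enzymes that oxidise lignin precursors, LAC16 was measured and fell by 2.95 with CHX, while its NAA value of -0.46 did not pass. None of these genes was called for the DEX average. Of all probe sets 18.8% were called lower and 19% higher with NAA without CHX, and 34.4% and 29.5% with CHX without NAA.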

How the data were processed

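Biotin-labelled cRNA from 16 root RNA samples was hybridised to 1-colour Affymetrix 3' arrays, per the labels' protocols. The deposited values are linear intensities per probe set, made by the authors with Affymetrix Expression Console 1.3, per the submitters' processing notes. Which algorithm was run is not stated there. Each array had a 2% trimmed mean of 500. Of 22810 probe sets 64 controls were left out.

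Genes were named through the array's probe list and the TAIR10.1 gene table, with 13513 probe sets named for 1 gene, 503 for several and 8730 for none. Intensities became log2(intensity + 16). The 16 arrays entered 1 linear model with a mean for each group (limma 3.58.1, R 4.3.3) and a variance trend (8 residual and 7.94 prior degrees of freedom), 2-sided, adjusted over 22746 probe sets per comparison. The fit was tested on simulated data.

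The genes, lists and comparisons were chosen with earlier results of these data known. Values per array are given for up to 3 rises and 3 falls in each of the 6 main comparisons and for genes of the role lists. Replicate numbers were not used to pair the arrays in the main fit, and a replicate block was run as an alternative. Deviations of arrays with the same number correlated by -0.0464 to 0.0643 over all probe sets. That cannot show whether the sets were grown or handled as pairs. The number of arrays limits the precision.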

Additional observations from a re-analysis of the deposited data

Results flagged for a closer look

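The NAA change differed between roots without and with CHX for 20 peroxidases, by the interaction in limma at an adjusted p under 0.05. The difference was positive for AT3G01190 (2.53), AT5G06730 (2.33), AT4G30170 (2.29), AT2G41480 (2.26), AT4G33420 (1.83), AT2G39040 (1.70), AT3G21770 (1.43) and AT4G11290 (1.21). It was positive and smaller for AT5G15180 (1.06), AT1G14550 (0.91), AT1G49570 (0.85), AT4G26010 (0.58), AT5G66390 (0.53) and AT1G30870 (0.31). It was negative for AT5G14130 (-1.95), AT2G18980 (-1.71), AT2G37130 (-1.55), AT5G39580 (-0.58), AT3G28200 (-0.38) and AT5G64100 (-0.38). Leaving out single arrays ended the call of AT1G49570 in 12 of 16 fits and that of AT1G30870 in 5. No group has more than 2 arrays, so single arrays that stand apart could not be tested.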

How the results depend on the processing

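Of 130 calls in the 6 main comparisons, 116 held in all 16 fits that left out 1 array, and 115 held there and in the other fits that tested them (quantile normalization, pseudocounts of 1 and 64, a replicate block, no variance trend, and a filter to the brightest 60% of probe sets, which keeps 31 of the 45 peroxidases). No called change turned its sign. An added minimum change of 1 left 1 rise and 11 falls with NAA, 0 rises and 1 fall with NAA under CHX, 10 rises and 17 falls with CHX, 11 rises and 13 falls with CHX beside NAA, 9 positive and 3 negative interactions, and 0 rises for the DEX average. A pseudocount of 64 gave 1 rise with NAA under CHX (PRX52 at 0.38), and the DEX average had 0 rises with a pseudocount of 1 and 0 without the variance trend. Leaving out 1 array gave 7 to 10 rises and 17 to 19 falls with NAA, and 0 to 1 rises and 7 to 10 falls with NAA under CHX, the rise being AT2G35380 without DEX+CHX replicate 1 (0.54) or NAA+DEX+CHX replicate 2 (0.53). It gave 13 to 16 rises and 22 falls with CHX, 17 to 20 rises and 16 to 18 falls with CHX beside NAA, and 12 to 15 positive and 6 to 7 negative interactions. For DEX it gave 0 to 1 rises and 0 to 1 falls on average, 0 to 1 calls alone and with NAA, and 0 with CHX or with both. The replicate block gave 8 rises and 18 falls with NAA, 0 and 8 with NAA under CHX, 15 and 22 with CHX, 19 and 17 with CHX beside NAA, 13 and 6 interactions, and 1 and 0 for the DEX average. The all-probe median shifted by at most 0.0972 under quantile normalization. No gene had several probe sets, so the choice among them was not run.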
